A study of Rattus norvegicus with 4 samples.

Results

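The mitochondrial respiratory chain and ATP synthase were followed in rat brain through the messenger RNAs of their nuclear-encoded subunits. The genes were taken by symbol from those named through the accession in the array files: Ndufa, Ndufb, Ndufc, Ndufs and Ndufv for complex I, Sdha to Sdhd for complex II, Uqcr for complex III, Cox4 to Cox8 for complex IV, Atp5 for complex V, and Cycs for cytochrome c, leaving out the Ndufaf assembly factors. The rule found 78 of the 15443 named genes: 77 of the 112 protein-coding genes it matches in the RefSeq table, and the pseudogene Cox6c-ps1. By complex these were 32 genes of complex I, 4 of complex II, 8 of complex III, 17 of complex IV, 16 of complex V and cytochrome c. Cyc1, Cox7a1 and Atp5mc3 were not matched to a probe and were not analysed here. A probe was counted as well above background when the scanner software flagged 50% or more of its spots as such. By that measure 77 genes were well above background on all 4 arrays and Cox8c, a testis isoform, on none of them, so that the results below are over 77 genes.

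RNA came from male rats chosen out of 106 animals by how long they stayed immobile when made to swim, the score of the forced swimming test. Rats with depressive-like behaviour (the depressive state) and rats with average scores (the control state) were compared, and all had swum 1 week before they were killed. For each state and each tissue, cerebellum or prefrontal cortex, RNA of 4 rats was pooled in equal amounts and put on 1 one-colour array, giving 4 groups, which are listed throughout with the cerebellum before the cortex and control before depressive. The labels give no strain, no age and no genotype, the control rats had also been made to swim, and no rats without the test were included. Tissue was taken from slices 1 mm thick. Whether both tissues came from the same rats is not stated. With 1 pool per group, nothing within a tissue can be tested, and the only test that could be made took the states as replicates of the tissues, or the tissues as replicates of the states. This limits the precision of every value below. The array files of the control cortex and depressive cerebellum groups are linked in the records to each other's sample. Arrays were grouped by file name, which the deposited value table matched, and with the files as linked 0 members were called between tissues and 29 between states. By construction these 29 are the tissue calls of the grouping by file name under the other label. The free-text descriptions of both depressive samples also name the other tissue than their titles, sources and tissue fields, which were followed here. Statements below about how many settings kept a call cover the 11 alternatives that keep this grouping of the arrays.

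Electrons enter the chain at complex I (NADH dehydrogenase) or complex II (succinate dehydrogenase), pass through complex III and cytochrome c to complex IV (cytochrome c oxidase), and the proton gradient built on the way drives complex V (ATP synthase). Neurons depend heavily on this pathway. Several complex IV subunits exist as a general isoform and a second one known from heart, skeletal muscle, lung or testis.

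Values are processed signals divided by the 75th percentile of their own array, which lay between 3119 and 4365 units, so that 1 means a gene at that percentile. Signals of different genes come from different probes and are not compared. A tissue difference is cerebellum minus prefrontal cortex on the log2 scale, averaged over both states, and its SE and Benjamini-Hochberg adjusted p come from a limma fit of tissue and state over all 11624 genes well above background on all arrays. A gene was called at an adjusted p below 0.05. Of 10 cerebellar neuron markers, all 10 were called higher in the cerebellum, with summed signals of 185 and 172 there against 5.49 and 5.14 in the prefrontal cortex (control first). The 7 cortical neuron markers measured in both tissues were all lower in the cerebellum. Their list of 10 summed to 8.50 and 8.01 in the cerebellum against 60.5 and 56.1 in the prefrontal cortex. On each cerebellar array 7 of the 10 were well above background, Tbr1 and Fezf2 not among them. In whole tissue, fewer cells of a type and less RNA per cell cannot be told apart, and the part of cell makeup in the results below was not tested.

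The chain differed little between the tissues as a whole, and a few single subunits differed clearly. Cox6a2, known as the muscle isoform of a complex IV subunit, was 8.65-fold lower in the cerebellum than in the prefrontal cortex, and Cox8b, another muscle isoform, was 2.62-fold higher. No other member reached 2-fold, a size reached by 20.2% of all genes tested. At a difference of 0.32 on the log2 scale or more there were 14 of 77 members, against 60.3% of all genes. The limma fit called 29 of 77 members, or 37.7%, against 72.5% of all genes. Of these, 9 were higher in the cerebellum, where 34.7% of all genes were called higher, and 20 were lower, where 37.8% were called lower. The median absolute difference was 0.14 for members and 0.42 for all genes. Of the members 74 lay above the 75th percentile on the mean of the arrays. Among the 3771 genes in that range the median absolute difference was 0.34, with 70.0% called and 14.3% at 2-fold, while among those 74 members 36.5% were called and none reached 2-fold. That split by brightness was made after the values were seen.

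**Figure D1:**
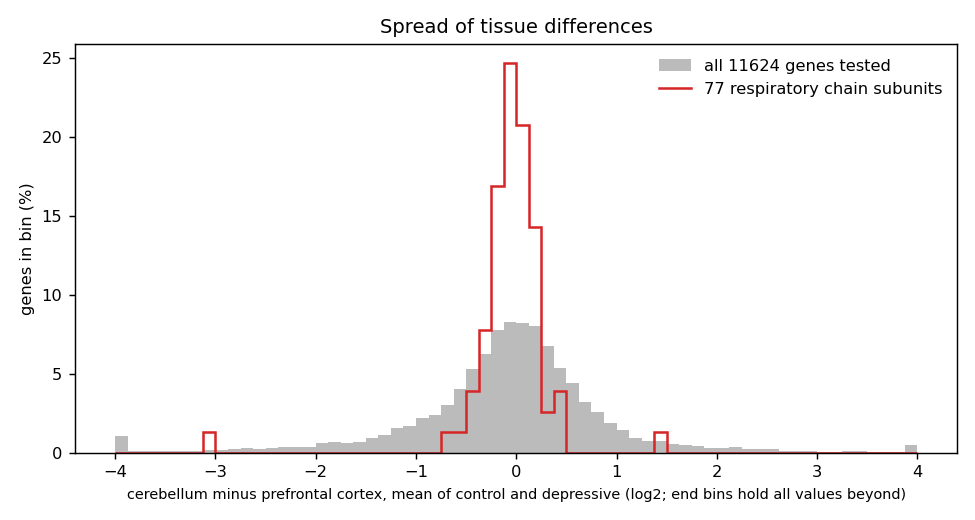
Histogram of the tissue difference (x axis, log2, cerebellum minus prefrontal cortex, mean of both states) for all 11624 genes tested (grey) and for the 77 subunits (red line), as the percent of genes per bin (y axis). Most subunits lie close to 0, and the 2 isolated red bins are Cox6a2 at -3.11 and Cox8b at 1.39.

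The direction of the small differences depended on how arrays were put on 1 scale. The 29 calls were 31.0% higher and otherwise lower in the cerebellum. The higher share was 43.2% of 37 calls after normexp background correction, 51.9% of 27 in the deposited value table, 60% of 30 when each array's median was subtracted, and 84.1% of 44 after quantile normalization. The median over members moved from -0.027 to 0.17 under quantile normalization, while that of all genes moved from -0.021 to 0.077. Without the control cortical array 17 members were called (9 of them lower), and without the depressive cerebellar array 19 (12 lower). The higher calls numbered 5 without the control cerebellar array and 5 without the depressive cortical one. Calls that held in all 11 alternatives that keep the grouping by file name, leaving out each array included, numbered 9: Cox6a2, Atp5if1, Uqcr11, Atp5mf, Ndufa10 and Ndufb3 lower in the cerebellum, and Uqcrfs1, Ndufc2 and Ndufb11 higher. Those 9 carry the description that follows, and for the other calls the number of the 11 settings that kept them is given.

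The control and depressive pairs, which share no array, gave similar tissue differences. Across the 77 members, Pearson's r between the pairs was 0.974, and 0.941 without Cox6a2 and Cox8b. Across all genes it was 0.977. These are descriptions across genes on 4 arrays, and genes are not independent replicates. The sign was the same in both pairs for 67 of 77 members.

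**Figure D2:**
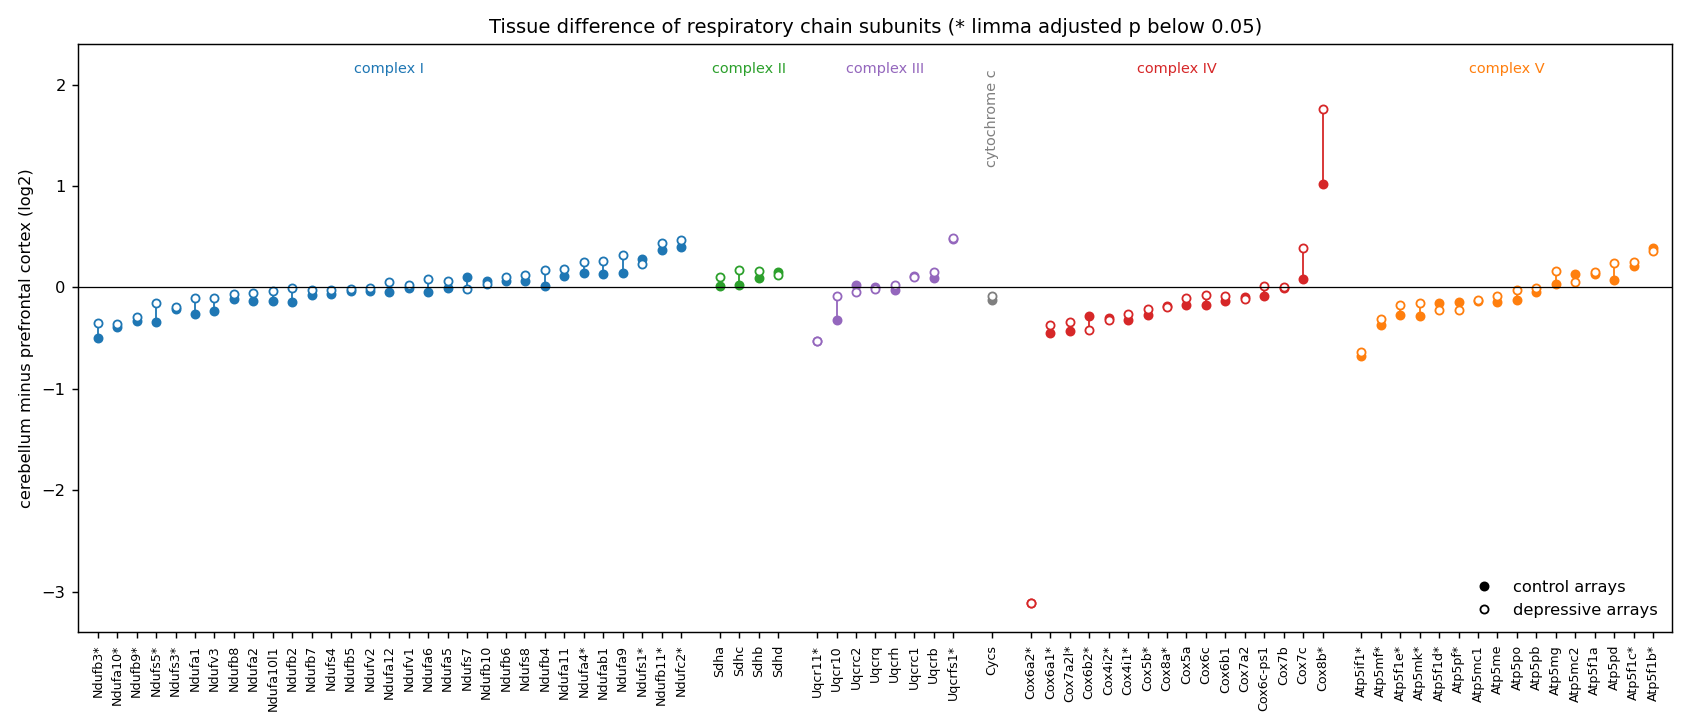
Tissue difference of 76 of the 77 subunits (y axis, log2, cerebellum minus prefrontal cortex), ordered within its complex; filled points are the control arrays, open points the depressive arrays, and asterisks mark genes with a limma adjusted p below 0.05. Complex II lies above 0 in both states and most of complex IV below it, while Cox6a2 (-3.11) and Cox8b (1.02 and 1.76) stand apart; 1 array per group, so points have no error bars.

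Complex I had subunits called in both directions, 5 higher and 5 lower of 32, with a median of 0.0084. That was 31.3% called, against 72.5% of all genes (34.7% higher and 37.8% lower). Ndufc2, an accessory subunit of the membrane arm, gave signals of 24.7 (control) and 24.4 (depressive) in the cerebellum and 18.8 and 17.7 in the prefrontal cortex. Both cerebellar arrays were above both cortical ones, a difference of 0.43 (SE 0.05, limma adjusted p = 0.00547). Ndufb11, an X-linked accessory subunit of the membrane arm, stood at 13.8, 14.0, 10.71 and 10.4 in the same order, again higher on both cerebellar arrays (0.40, SE 0.05, limma adjusted p = 0.00652). Ndufs1, the large iron-sulphur subunit of the electron input module, read 7.77, 7.60, 6.38 and 6.48. Its difference of 0.26 was called (limma adjusted p = 0.0186) and kept under 9 of the 11 other settings. Quantile normalization raised these 3 differences to 0.66, 0.68 and 0.44.

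Other subunits of the membrane arm were lower in the cerebellum. Ndufb3, an accessory one, gave 19.5, 19.8, 27.5 and 25.3, so that the tissues did not overlap (-0.42, SE 0.06, limma adjusted p = 0.00861). Ndufa10, also accessory, gave 4.35, 4.23, 5.68 and 5.43, lower on both cerebellar arrays (-0.37, SE 0.05, limma adjusted p = 0.00674). Under quantile normalization these shrank to -0.23 and -0.21 and were still called. Ndufb9 gave 23.6, 23.2, 29.7 and 28.3 (-0.31, limma adjusted p = 0.0112, kept under 9 settings). Ndufs3, Ndufs5 and Ndufa4 were called at differences of 0.25 or less in size, and no more than 6 of the 11 settings kept any of them. Ndufa4, named for complex I and now placed in complex IV, was 0.20 higher. The 7 core subunits, which carry the flavin and iron-sulphur centres, had a median of 0.04 and the 25 accessory ones -0.03.

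Different probes of some complex I genes did not give the same tissue difference. The brightest Ndufab1 probe (the acyl carrier protein, also part of fatty acid synthesis) gave 0.20 and its other probe 1.42. For Ndufv3, a small flavoprotein-module subunit with alternative transcripts, a pair of probes gave -0.17 and -0.12, and a probe printed in 10 spots gave 0.56. Ndufs4 gave -0.05 and 0.26, and Ndufa10l1 gave -0.08 and 0.01. Which transcript each probe reads was not tested. Of the 17 members with several probes, 5 had probes of mixed sign: Ndufv3, Ndufs4, Ndufa10l1, Cox7a2 (-0.11 and 0.05) and Cycs (-0.10 and 0.28).

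Complex II, which is also an enzyme of the citric acid cycle, had all 4 subunits above 0 but none called, against 72.5% of all genes called. The differences were 0.06 for the flavoprotein Sdha, 0.13 for the iron-sulphur protein Sdhb, and 0.10 and 0.14 for the membrane anchors Sdhc and Sdhd, with limma adjusted p between 0.0791 and 0.416. Sdhd, the anchor with the smallest p, read 8.03, 8.02, 7.22 and 7.37. All 4 stayed above 0 under each scaling and background alternative, and all 4 were called after quantile normalization. Without the depressive cortical array Sdha was at -0.0045.

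Complex III held 1 clear difference in each direction among 8 subunits, or 25% called against 72.5% of all genes. Uqcrfs1, the Rieske iron-sulphur protein that passes electrons on towards cytochrome c, gave 8.75, 8.42, 6.30 and 6.004 and was higher on both cerebellar arrays (0.48, SE 0.05, limma adjusted p = 0.00365). Uqcr11, the smallest accessory subunit, gave 27.6, 27.1, 39.8 and 39.0 and was lower on both (-0.53, SE 0.05, limma adjusted p = 0.00296). Under quantile normalization it was -0.30 and still called. Its other probes gave -0.47 and -0.44. The core proteins Uqcrc1 and Uqcrc2 stood at 0.11 and -0.01, and neither was called. Uqcrb, the ubiquinone-binding subunit, was not called at 0.12, and its other probe, in 10 spots, gave 0.40. Cytochrome c itself (Cycs), the mobile carrier, gave 17.2, 17.4, 18.8 and 18.5 and was not called (-0.10, limma adjusted p = 0.144).

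Complex IV leaned lower in the cerebellum. Of 16 genes, the pseudogene Cox6c-ps1 among them, 13 were below 0, against 51.4% of all genes. Of these 16, 8 were called lower and 1 higher, against 37.8% and 34.7% of all genes, and the median was -0.16 against -0.021. Ndufa4, counted under complex I by its symbol, is not among these 16 and was called higher (0.20). The lean held with normexp (13 below 0), median scaling (12) and the value table (12). Under quantile normalization 7 of 16 were below 0 and the median was 0.04, so that the lean depended on that choice.

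The largest differences were in isoforms. Cox6a2 gave 0.115 and 0.120 on the cerebellar arrays, and 0.995 and 1.04 on the cortical ones. The cortical arrays were at the 75th percentile and the cerebellar ones far below it, and the difference was the same in both states, -3.11 each (SE 0.05, limma adjusted p = 0.000201). Across the other settings it lay between -3.14 and -2.96. Its general counterpart Cox6a1 gave 87.8, 84.0, 119.8 and 109, also lower in the cerebellum but by 0.41 on the log2 scale (limma adjusted p = 0.00632), a call lost under quantile normalization (-0.05). Cox8b gave 0.0946, 0.143, 0.0467 and 0.0423. These low signals were well above background on all 4 arrays, and both cerebellar ones were higher (1.39, SE 0.21, limma adjusted p = 0.00878). The control pair gave 1.02 and the depressive pair 1.76, and among the 11 alternatives with the same grouping the call was lost only without the filter on dim probes (limma adjusted p = 0.0519). Its general counterpart Cox8a gave 46.8, 43.8, 53.0 and 50.2 and leaned the other way (-0.19, limma adjusted p = 0.0367), with only 2 settings keeping that call and 0.02 under quantile normalization.

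Muscle markers were mixed. Of 8 markers of skeletal and heart muscle, 4 were called lower in the cerebellum, among them the myosins Myh7 (-4.30) and Myh6 (-4.26) and the actin Acta1 (-1.65), and the troponin Tnnt2 was called higher (1.47). Ckm and Mb, the muscle creatine kinase and myoglobin, stood at -0.07 and -0.17 with no call. The summed list was 1.79 and 1.98 in the cerebellum and 1.77 and 2.02 in the prefrontal cortex. All 8 were well above background on all arrays. Called higher in the cerebellum were also 4 of 4 choroid plexus markers measured on all arrays (median 6.10) and 6 of 6 meningeal ones (1.57). So were 5 of 6 oligodendrocyte and 3 of 5 astrocyte markers, with 1 astrocyte marker called lower. All 3 red cell markers were called lower. Among all genes 34.7% were called higher and 37.8% lower. The part of all these lists in the Cox6a2 and Cox8b differences was not tested.

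Promoters of the muscle forms Cox6a2 and Cox8b and of the general forms Cox8a and Cox4i1 are shown. Only Cox8a and Cox8b are forms of the same subunit. The promoters are RefSeq sequences of assembly GRCr8, from 250 bases before to 50 after the gene start, written 5′ to 3′ on the gene's strand. Capitals mark the ETS core searched for, CCGGAAG or its reverse complement CTTCCGG, a sequence that GABP (nuclear respiratory factor 2) can bind. Cox6a1 has no entry in the promoter table.
Cox6a2: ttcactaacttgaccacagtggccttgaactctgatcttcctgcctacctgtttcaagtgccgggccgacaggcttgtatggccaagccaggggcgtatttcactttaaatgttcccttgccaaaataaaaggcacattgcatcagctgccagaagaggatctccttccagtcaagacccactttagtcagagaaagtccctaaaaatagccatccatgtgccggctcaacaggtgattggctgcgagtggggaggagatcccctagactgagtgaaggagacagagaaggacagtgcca
Cox8b: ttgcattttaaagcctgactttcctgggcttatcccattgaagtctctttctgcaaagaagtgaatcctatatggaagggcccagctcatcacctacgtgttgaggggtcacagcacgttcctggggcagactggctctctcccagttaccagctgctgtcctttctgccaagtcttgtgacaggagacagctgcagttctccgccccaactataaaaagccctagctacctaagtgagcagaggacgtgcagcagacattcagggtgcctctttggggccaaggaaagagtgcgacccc
Cox8a: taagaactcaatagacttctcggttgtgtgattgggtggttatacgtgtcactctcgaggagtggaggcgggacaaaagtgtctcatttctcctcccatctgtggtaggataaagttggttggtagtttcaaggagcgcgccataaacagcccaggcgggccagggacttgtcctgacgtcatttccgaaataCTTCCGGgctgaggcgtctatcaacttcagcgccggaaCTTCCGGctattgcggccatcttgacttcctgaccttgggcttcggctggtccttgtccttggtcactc
Cox4i1: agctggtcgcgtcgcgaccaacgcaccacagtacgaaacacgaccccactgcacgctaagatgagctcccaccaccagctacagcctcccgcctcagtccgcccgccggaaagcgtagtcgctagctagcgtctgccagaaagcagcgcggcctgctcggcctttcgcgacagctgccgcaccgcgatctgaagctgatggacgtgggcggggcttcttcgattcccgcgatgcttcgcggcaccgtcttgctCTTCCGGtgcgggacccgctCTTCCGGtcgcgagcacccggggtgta
Cox6a2 lies at chr1:192219667-192219966 on the minus strand, Cox8b at chr1:205408224-205408523 on the minus strand, Cox8a at chr1:213833574-213833873 on the minus strand and Cox4i1 at chr19:65630133-65630432 on the plus strand. Cox6a2 and Cox8b each hold 5 CpG dinucleotides and none of the motifs searched. Cox8a holds 16 CpG and 2 ETS matches, and Cox4i1 38 CpG and 2 ETS matches. The CpG counts of Cox6a2 and Cox8b were the lowest among the 67 members with a promoter, with Cox6b1 and Cox7b next at 6 each. Of 9497 genes tested with a promoter 14.2% held 5 or fewer, a limit set at the count of these isoforms, and the median was 20 for both sets. The 4 promoters were chosen after the values were seen. Over complex IV the ETS core was in 4 of 12 promoters, and Cox6b1 and Cox7b held none of the motifs. The 4 shown therefore do not stand for muscle and general forms at large.

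Motif matches over all members with a promoter were counted the same way, on both strands, with letters chosen after the array values were seen. The ETS core was in 20 of 67 members (29.9%), in 16.3% of tested genes and in 11.2% of 19005 protein-coding promoters. The nuclear respiratory factor 1 core GCGCATGCG was in 7 members (10.4%), including Cycs and 4 of 15 complex V genes, in 2.94% of tested genes and in 2.03% of all. The YY1 core AAGATGGCG was in 9 members (13.4%), including 6 of 29 complex I genes, in 3.22% of tested genes and in 2.29% of all. No member promoter held matches of different motifs that overlap, and 30 of 67 held at least 1 of the 3. A match is a run of letters in this window and no measured site.

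In the other isoform pairs of complex IV both members read lower in the cerebellum. Cox4i1, the general form of the subunit that binds ATP, gave 51.5, 51.0, 64.5 and 61.0, and Cox4i2, known from lung and hypoxia, gave 1.59, 1.49, 1.96 and 1.86. Both were lower in the cerebellum, by 0.29 and 0.31 on the log2 scale (limma adjusted p = 0.0139 and 0.0102), kept under 8 and 10 settings. Cox6b2, the testis form, gave 6.21, 5.54, 7.56 and 7.43 and was lower (-0.35, limma adjusted p = 0.0134, kept under 7). Cox6b1, its general form, gave 11.7, 11.1, 12.9 and 11.8, so that its tissues barely separated, and was not called (-0.11, limma adjusted p = 0.131). Of 5 testis markers, Prm1 and Prm2 were well above background on all arrays at signals of 0.0543 or less, Ldhc and Tnp1 on 2 and 1 arrays, and Pgk2 on none. The list summed to between 0.0708 and 0.0830 on the 4 arrays, and its part in the Cox6b2 signal was not tested. Cox7a2l, which helps join complexes III and IV into supercomplexes, gave 13.4, 13.4, 18.0 and 17.0 and was lower in the cerebellum (-0.38, limma adjusted p = 0.00783, lost under quantile normalization at -0.11). Cox7a2, its general relative, was not called. Cox6c was not called (-0.12), and its pseudogene Cox6c-ps1, whose probe can pick up Cox6c transcripts, was at -0.04. Cox5b was called lower (-0.24), under 6 settings, and Cox5a and Cox7b were not called.

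**Figure D3:**
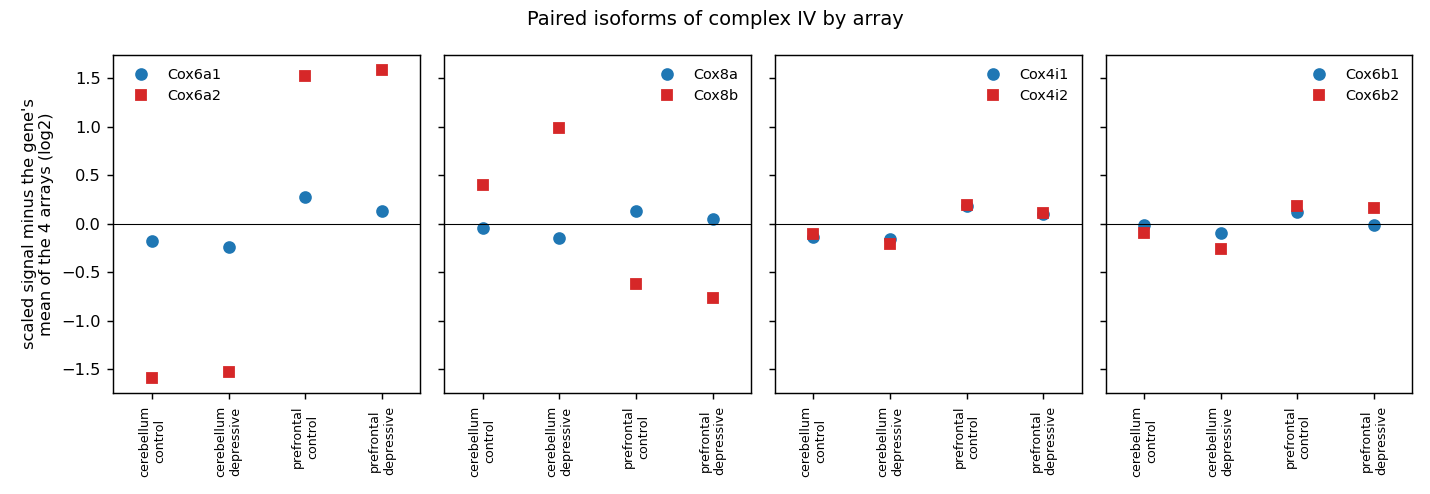
Signal of each gene on each array minus that gene's own mean over the 4 arrays (y axis, log2) for the pairs Cox6a1 and Cox6a2, Cox8a and Cox8b, Cox4i1 and Cox4i2, Cox6b1 and Cox6b2; circles are the general isoform and squares the other, 1 array per group. Cox6a2 is low on both cerebellar arrays, Cox8b is high on them and highest on the depressive one, and the remaining pairs keep close to each other.

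Complex V had 2 subunits called higher in the cerebellum and 6 lower of 16, against 34.7% and 37.8% of all genes. In either direction 50% of them were called, against 72.5% of all genes. Atp5if1, the inhibitor that blocks ATP hydrolysis when the membrane potential falls, gave 10.9, 10.73, 17.4 and 16.6 and was lower on both cerebellar arrays (-0.65, SE 0.05, limma adjusted p = 0.00195), a 1.57-fold difference that shrank to -0.39 under quantile normalization. Atp5f1b, the catalytic beta subunit, went the other way with 12.5, 10.96, 9.60 and 8.57 (0.37, or 0.60 under quantile normalization; limma adjusted p = 0.00693, kept under 9 settings). The gamma shaft subunit Atp5f1c was also higher (0.23, limma adjusted p = 0.0227, kept under 8), and the alpha subunit Atp5f1a lay at 0.14 and was not called. The small head subunits Atp5f1d and Atp5f1e were called lower at -0.19 and -0.22, each under 4 settings, and Atp5f1d was at 0.08 under quantile normalization. Of the membrane subunits, Atp5mf gave 37.7, 37.0, 48.7 and 45.9 and was lower (-0.34, SE 0.05, limma adjusted p = 0.00913), with -0.16 under quantile normalization and -0.19 from its other probe. Atp5mk (-0.22) and the stalk subunit Atp5pf (-0.18) were called under 3 and 2 settings, and Atp5pf was at 0.08 under quantile normalization. The c-ring genes Atp5mc1 and Atp5mc2, which encode the same mature protein, stood at -0.13 and 0.10 without a call.

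Genes that build, feed and surround the chain were counted beside it, against 34.7% of all genes called higher in the cerebellum and 37.8% called lower. Of 17 regulators of mitochondrial biogenesis measured, 9 were called higher in the cerebellum and 1 lower: the coactivator Ppargc1b was 1.84 higher, the polymerase subunit Polg2 1.81 and the nuclear receptor Esrrg 1.15, while Ppargc1a stood at -0.09 without a call. Of 39 assembly factors 5 were higher and 19 lower, with the copper chaperone Cox11 at -1.57, Ttc19 of complex III at -0.80 and Cox20 of complex IV at 0.98. Of 22 genes of glycolysis and lactate transport 4 were higher and 12 lower. Ldha stood at -1.45, the monocarboxylate transporter Slc16a7 at -1.31 and Pfkl at -0.68. Of 21 citric acid cycle and pyruvate dehydrogenase genes 6 were higher and 5 lower, with the kinases Pdk1 at -1.23, Pdk4 at 0.95 and Pdk2 at 0.79. Carriers and membrane exchange gave 4 higher and 8 lower of 20. Slc25a14 stood at -0.80, the calcium uniporter Mcu at 0.77 and Micu3 at 0.65. Superoxide and peroxide defence gave 1 higher and 2 lower of 10, with Gpx4 at -0.29, Sod2 at -0.26 and Gpx1 at 0.23. Shares called in either direction ran from 30% for the defence genes to 72.7% for glycolysis, against 72.5% of all genes, and none of these shares was tested against that of the subunits.

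Between states, no subunit passed the test. The limma fit called 0 of 77 members and 0 of 11624 genes (0%), and at an unadjusted p below 0.05 there was 1 member, Atp5f1b, against 871 of all genes. After normexp correction 5 genes were called, none of them members. Differences below are depressive minus control within a tissue, from 1 array each.

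In the prefrontal cortex nearly the whole chain read slightly lower on the depressive array. Of 77 members 71 were below 0, against 51.7% of all genes, with a median of -0.080 against -0.0048 for all genes. The count was 30 of 32 in complex I, 3 of 4 in complex II, 6 of 8 in complex III, 15 of 16 in complex IV and 16 of 16 in complex V, and medians ran from -0.09 to -0.07. Of 20 further probes of 17 members, 17 were also below 0. Among genes above the 75th percentile 62.7% were below 0 with a median of -0.02, against 70 of the 74 members in that range. Most other gene lists leaned the same way to a lesser degree. Below 0 were 17 of 22 genes of glycolysis and lactate transport, 14 of 20 carriers and 26 of 39 assembly factors. The counts were 12 of 21 for the citric acid cycle, 6 of 10 for the defence genes and 5 of 17 for the biogenesis regulators. The size of the shift in members depended on the scaling: under quantile normalization 56 of 77 were below 0, against 52.8% of all genes, and the median was -0.03. By complex, I to V, the counts were then 28 of 32, 3 of 4, 5 of 8, 10 of 16 and 10 of 16. The members above 0 were Ndufs7, Uqcrq, Uqcrc2, Cox6a2, Sdhd and Ndufs1.

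Only Cox7c, a small subunit of complex IV, differed by 0.32 or more on the log2 scale there, a size reached by 4.77% of all genes. It gave 1.96 in control and 1.47 in depressive prefrontal cortex (-0.42), and 2.07 and 1.92 in the cerebellum, from a probe with a single spot. The next largest were the stalk subunit Atp5pd, with 18.8 and 16.3 (-0.21, SE between spots 0.12), and Cox6c-ps1, with 2.98 and 2.60 (-0.20). Over all members the median SE between the spots of a probe was 0.026, which measures spot noise and not the spread between pools.

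Marker lists of other cell types moved in both directions on the same cortical arrays. The 6 oligodendrocyte markers all read higher in the depressive pool, with a median of 0.38 and summed signals of 148 and 156. The 6 meningeal markers were all higher with a median of 0.87 and sums of 19.8 and 39.0, and the 3 red cell markers were all higher with sums of 4.08 and 15.3. Of the 5 astrocyte markers 4 were below 0, with a median of -0.03 and sums of 39.8 and 39.99. Of the 7 cortical neuron markers measured on all arrays 5 were below 0, with a median of -0.03, and the list of 10 summed to 60.5 and 56.1. The summed choroid plexus list was 8.31 and 1.94, nearly all of it Ttr (8.21 and 1.86). In that list Folr1 and Sostdc1 were also lower, at -0.999 and -1.37, Kcnj13 was higher at 0.58, Kl was not well above background on either cortical array and Otx2 not on the depressive one. The part of these in the lower subunit signals was not tested.

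In the cerebellum the shift between states was smaller. Of 77 members 53 were below 0, against 60.2% of all genes, and the medians were -0.023 and -0.025. By complex the counts were 18 of 32, 3 of 4, 5 of 8, 13 of 16 and 14 of 16. Only Cox8b differed by 0.32 or more, a size reached by 6.37% of all genes: it gave 0.0946 in control and 0.143 in depressive cerebellum (0.60, SE between spots 0.06), against 0.0467 and 0.0423 in the cortex (-0.15). The lowest was Atp5f1b, at 12.5 and 10.96 (-0.20, SE between spots 0.02). All 10 cerebellar neuron markers were below 0 as well, with a median of -0.12 and sums of 185 and 172. The 3 red cell markers were higher here too, with sums of 2.44 and 9.73. All 6 meningeal markers were above 0, with a median of 0.14 and sums of 93.1 and 101. Of the 6 choroid plexus markers 5 were higher, by 0.55 (Folr1), 0.59 (Otx2), 0.76 (Kl), 0.78 (Sostdc1) and 0.81 (Kcnj13), while Ttr was at -0.07 and the list summed to 176 and 172. The part of these lists in the subunit differences, that of Cox8b included, was not tested.

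Taken singly, 71 of 77 members were below 0 in the prefrontal cortex and 53 in the cerebellum, which already fixes most of the overlap. Members below 0 in both tissues numbered 51 of 77, against 34.6% of all genes, and the tissues share no array. Atp5f1b had the largest such difference by its smaller side, -0.20 in the cerebellum and -0.16 in the prefrontal cortex, and its fitted state difference was -0.18 (SE 0.05, limma adjusted p = 0.655). Ndufb10 stood at -0.14 and -0.11 and Atp5mc2 at -0.18 and -0.10. Members above 0 in both were Cox6a2 (0.06 and 0.06), Ndufs7 (0.03 and 0.14), Uqcrc2 (0.0024 and 0.07) and Uqcrq (0.08 and 0.10). The other 22 had opposite signs, 14 of them in complex I. Across the 77 members, Pearson's r between the state differences of the tissues was 0.105, and 0.271 without Cox6a2 and Cox8b. Across all genes it was 0.202. Since most subunits read lower in the depressive cortex and less so in the cerebellum, the tissue difference was higher in the depressive pair for 61 of 77 members, against 4865 of 11624 genes.

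**Figure D4:**
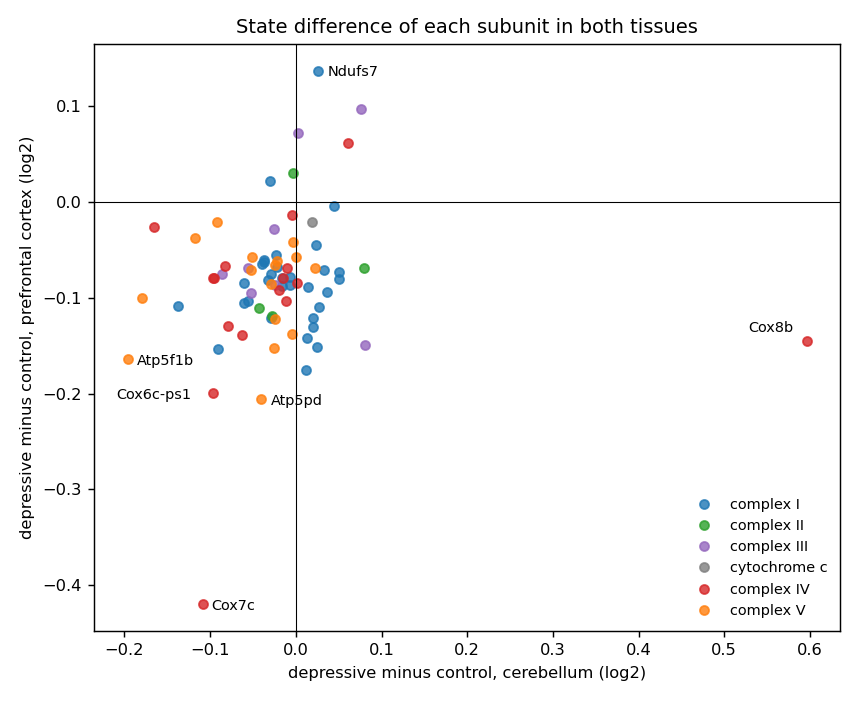
Depressive minus control difference of each of the 77 subunits in the cerebellum (x axis, log2) and in the prefrontal cortex (y axis, log2), coloured by complex, from 1 array per group. Points gather below the horizontal line, 71 of 77 in the prefrontal cortex, with Cox8b far to the right (0.60) and Cox7c at the bottom (-0.42).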

How the data were processed

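Agilent Feature Extraction 10.7.1.1 read the scans, per the file headers, and the deposited scanner files give a background-subtracted processed intensity per spot, with flags. The deposited value table holds the same intensities after the authors divided each array by 1 number, chosen in a way not given in the sources used here. After outlier and control spots were dropped, log2 intensities were averaged over a probe's 1, 2 or 10 spots and scaled by subtracting the array's 75th percentile. Of 30367 probes 18355 were named through accessions in a table of assembly GRCr8, and a gene was shown by its brightest probe. limma 3.58.1 (lmFit and eBayes, tissue and state, R 4.3.3) was run on 4 arrays over 11624 genes with Benjamini-Hochberg adjustment. No group has a second pool, so p-values do not measure the spread between pools of a group. The 1 residual degree of freedom is the departure of the tissue difference between the states. It was moderated with a spread estimated over all genes, which counted for 2.41 degrees of freedom. An SE near 0.05 is therefore set mostly by all genes and little by the gene itself. The fit was run on simulated data with noise drawn from its own SEs. It called 40 of 50 genes changed by 0.4 on the log2 scale, all 50 at each of 1, 2 and 3, and 19 unchanged genes. Only 200 of 11624 genes were changed, against 72.5% called in the real fit, and the Benjamini-Hochberg cut-off depends on that share. These counts therefore do not give the recovery or the false calls of the real fit. Smaller changes were not simulated, although most called members differed by less than 0.4. The simulation cannot show whether those SEs match the spread between pools.

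Alternatives were normexp background correction, quantile and median scaling, the mean over probes, no filter on dim probes, the value table, tissue alone in the fit, leaving out each array (tissue alone in the fit) and the files as linked. The planned normexp setting used the mean spot signal. The files used here give the median spot signal, which was taken instead with an offset of 50. Members, gene lists and tests were chosen with earlier results of these data known. Named are the 3 largest tissue differences in each direction per complex, isoform groups, the largest state differences, genes whose probes differ in sign and 3 genes per further list. Others were named after their values were seen. Some genes that entered the fits and counts are not reported here by name.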

Additional observations from a re-analysis of the deposited data

Results flagged for a closer look

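Cox8b, a muscle isoform of a complex IV subunit, differed between states in opposite directions in the tissues. It was 0.596 higher in the depressive than in the control cerebellum on the log2 scale and -0.145 in the prefrontal cortex. The difference between the tissues was not tested, since each value rests on 1 array per state, and the least size looked at, 0.1 in both tissues, was chosen after the values were seen.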

How the results depend on the processing

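No array has a replicate, so the calls rest on 4 pools, and signals near background limit only Cox8c. Of the 29 subunits called between tissues, 26 kept their sign under all 11 alternatives that keep the grouping by file name (not Atp5f1d, Atp5pf and Cox8a under quantile normalization) and 9 kept their call, while as linked none did. The count was 44 after quantile normalization, 13 without the filter on dim probes and 0 with files as linked, and from 17 to 20 with 1 array left out. Counts of higher calls (9) were 16 with normexp, 37 with quantile, 18 with median scaling, 4 without the filter, 14 in the value table and 0 as linked, and from 5 to 8 with 1 array left out. Counts of lower calls (20) were 7 with quantile, 12 with median scaling, 9 without the filter, 13 in the value table and 0 as linked, and from 9 to 15 with 1 array left out. The median tissue difference was 0.169 with quantile, 0.0482 with median scaling, 0.0114 in the value table and 0.0521 as linked. As linked, 29 subunits were called between states, and the median state difference was 0.0447 in the cerebellum and 0.0144 in the prefrontal cortex, where quantile normalization gave -0.0272. The files as linked put the cerebellar arrays under different tissue labels by construction. Their tissue difference is the state difference of the main grouping with its sign turned, and the reverse, so they do not test the tissue result. The causes of the other changes were not tested. No paired analysis was possible because the labels carry no replicate numbers that pair animals. The main fit compares tissues within states, and with tissue alone it called 29, of which 11 were higher and 18 lower.

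Tissue differences of these named subunits changed sign. The values given last, for files as linked, are the main state differences with their sign turned, by construction. Quantile normalization gave Atp5f1d 0.0782, Atp5mc1 0.0563, Atp5pf 0.0773, Cox5a 0.135, Cox6b1 0.143, Cox6c 0.0746, Cox6c-ps1 0.0637, Cox7a2 0.132, Cox8a 0.0223, Cycs 0.117, Ndufa10l1 0.169, Ndufs4 0.087, Ndufv3 0.0839, Uqcrc2 0.161 and Uqcrq 0.058. Median scaling gave Cox6c-ps1 0.0391, Ndufs4 0.0299, Uqcrc2 0.0641 and Uqcrq 0.0713. The value table gave Cox6c-ps1 0.0022, Uqcrc2 0.0273 and Uqcrq 0.036, and the mean over probes gave Cycs 0.0901, Ndufs4 0.107 and Ndufv3 0.0873. With 1 array left out, ranges crossed 0 for Cox6c-ps1 from -0.136 to 0.0632, Cox7b from -0.00448 to 0.00937, Ndufb10 from -0.0159 to 0.121, Ndufs7 from -0.0247 to 0.113, Sdha from -0.00447 to 0.115, Uqcrc2 from -0.0476 to 0.0246, Uqcrq from -0.0527 to 0.044. Files as linked gave Atp5f1d 0.0568, Atp5f1e 0.0235, Atp5if1 0.045, Atp5mc1 0.0541, Atp5mf 0.0569, Atp5mk 0.0712, Atp5pf 0.0779, Cox4i1 0.0471, Cox4i2 0.0874, Cox5a 0.0556, Cox5b 0.0397, Cox6a1 0.101, Cox6b1 0.104, Cox6b2 0.096, Cox6c 0.0576, Cox6c-ps1 0.148, Cox7a2 0.0752, Cox7a2l 0.0414, Cox8a 0.0878, Cox8b -0.225, Cycs 0.000943, Ndufa10 0.052, Ndufa10l1 0.0188, Ndufb3 0.0504, Ndufb9 0.0449, Ndufs3 0.0492, Ndufs4 0.0521, Ndufs5 0.0817, Ndufs7 -0.0817, Ndufv3 0.0149, Sdhc -0.00533, Sdhd -0.0135, Uqcr10 0.0345 and Uqcr11 0.0271.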
